A study of Rattus norvegicus with 12 samples.

Results

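Voltage-gated calcium channels open when a neuron is depolarised and let calcium in, which triggers transmitter release, shapes firing and signals to the nucleus. Their pore is the alpha1 subunit, encoded by the Cacna1 genes. T-type channels (Cacna1g, Cacna1h and Cacna1i, encoding Cav3.1, Cav3.2 and Cav3.3) open after small depolarisations and support rebound bursts, whereas high-voltage channels need stronger depolarisation. In the striatum, spiny projection neurons use L-type channels in their spines and N- and P/Q-type channels at release sites, and alpha2delta subunits (the Cacna2d genes) carry the alpha1 subunits to the membrane. Zonisamide, an antiepileptic drug that is also given in Parkinson's disease, blocks T-type calcium channels and voltage-gated sodium channels. Whether the RNA of its channel targets and their relatives differed between treatments is the question asked here.

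The genes are a list of 10 defined by channel family, with no threshold on measured values: 3 T-type genes, 5 high-voltage alpha1 genes and 2 alpha2delta genes. RefSeq accessions matched 7 of them to 11 of the 30367 probes on the array: Cacna1g and Cacna1i (T-type), Cacna1b, Cacna1c and Cacna1e (high-voltage) and Cacna2d1 and Cacna2d3 (alpha2delta). The other 3, Cacna1a, Cacna1d and Cacna1h, had no match and were not analysed here, so zonisamide's T-type targets were seen through 2 of 3 genes. All 11 probes were well above background on all 12 arrays, none was saturated, and all 7 genes passed the filter on dim probes.

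RNA came from the striatum of male Wistar rats whose left medial forebrain bundle had been injected with 6-hydroxydopamine, a toxin that kills dopamine neurons. The study kept animals whose rotation reached 7 turns per minute under methamphetamine at 3 mg/kg. There were 4 groups of 3 single-colour Agilent arrays: the non-lesioned side after saline, and the lesioned side after saline, after L-DOPA (100 mg/kg) or after L-DOPA (100 mg/kg) with zonisamide (50 mg/kg) 30 min later. Injections were given daily for 7 days, and benserazide, which blocks conversion of L-DOPA outside the brain, preceded L-DOPA by 30 min. Every group, the non-lesioned one included, thus came from rats with a lesion on 1 side, and the labels do not say whether both saline groups share animals. No group received zonisamide alone, so its comparison is of zonisamide on top of L-DOPA. The labels number the arrays of a group as replicates without naming an animal for each, so p-values measure the spread between these arrays. Levels below are log2 intensities minus each array's 75th percentile, so that 0 marks the 75th percentile, and an error is an SD over 3 arrays unless it is called a standard error (SE).

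No deposited file gives probe sequences, so the sequences shown are promoters. Cacna1b, the pore of N-type channels at release sites, and Cacna2d3, an alpha2delta subunit, both had lower means after L-DOPA than after saline. Both had higher means with zonisamide added to L-DOPA, as described below, and neither passed the test. These shared directions are why their promoters are shown. Each is the 250 bases before the RefSeq start in build GRCr8, read 5′ to 3′ on the minus strand, with GC boxes (GGGCGG on either strand) in capitals. Cacna1b lies at chr3:27944286-27944535 and Cacna2d3 at chr16:4918900-4919149.
Cacna1b: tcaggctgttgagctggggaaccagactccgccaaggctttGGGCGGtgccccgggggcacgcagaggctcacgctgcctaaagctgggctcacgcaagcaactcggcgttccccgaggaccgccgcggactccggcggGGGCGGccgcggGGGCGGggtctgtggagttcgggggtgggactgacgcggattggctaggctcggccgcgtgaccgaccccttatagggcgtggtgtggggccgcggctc
Cacna2d3: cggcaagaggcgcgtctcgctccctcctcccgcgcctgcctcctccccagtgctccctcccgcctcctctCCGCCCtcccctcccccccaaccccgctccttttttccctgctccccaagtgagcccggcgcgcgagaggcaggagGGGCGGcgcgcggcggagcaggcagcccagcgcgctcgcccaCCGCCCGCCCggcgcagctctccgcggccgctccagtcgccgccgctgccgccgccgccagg
Cacna1b holds 3 GC boxes and Cacna2d3 holds 4, of which 2 overlap. In windows that also take in the 50 bases after the start, GC content was 72.0% for Cacna1b and 79.3% for Cacna2d3, against a median of 51.7% over 33469 rat promoter windows, of which 33.1% hold a GC box. Windows were given for 5 of the 7 matched genes: the 3 of Cacna2d1 also hold GC boxes, and those of Cacna1c and Cacna1e hold none. The cAMP response element TGACGTCA, read by CREB, which L-DOPA and calcium entry both activate, was in none of these windows and in 1.83% of all windows. These matches describe the letters and say nothing of what binds there.

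The arrays' 75th percentiles lay between 793 and 1740 intensity units, and 67.6% to 74.0% of probes were well above background. The median coefficient of variation between repeated spots ran from 3.74% on lesioned saline replicate 3 to 27.8% on zonisamide replicate 3. The extraction software's quality summary was in range for lesioned saline replicate 3 only and marked every other array for evaluation. Over 19530 tested features, limma called 0 for the lesion, 82 for L-DOPA against saline, 91 for zonisamide added to L-DOPA and 0 for both drugs against saline, at a Benjamini-Hochberg adjusted p of 0.05. With the replicate number as a block, the calls for L-DOPA were 33 and those for zonisamide 13. Summed levels of 8 spiny neuron markers were 6.78 to 7.51 on the non-lesioned side, 7.17 to 7.19 in lesioned saline, 6.61 to 6.97 after L-DOPA and 6.75 to 7.28 with zonisamide. One array stood apart: replicate 1 of L-DOPA with zonisamide had a summed level of 3.23 for 6 thalamic and septal neuron markers, against 0.32 to 1.18 on the other 11. The glutamate transporter gene Slc17a6 was at 2.52 there and at -0.91 or less elsewhere. Calb2, which is also on the interneuron list, was at 1.17 against -1.60 or less, Zic1 at -1.74 against -3.16 or less, and Zic2 at -2.84 against -3.47 or less. The other 2 markers, Lhx2 (-0.21) and Trpc4 (-3.41), were within the range of the other arrays. Summed choroid plexus markers (11 of 12 listed were tested) also varied, from 3.26 to 7.31 on the non-lesioned side, 1.99 to 4.60 in lesioned saline, 4.57 to 7.55 after L-DOPA and 3.22 to 6.86 with zonisamide.

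None of the 7 calcium channel genes passed the test in any of the 4 comparisons, where the share of all features called was 0% for the lesion, 0.42% after L-DOPA, 0.466% when zonisamide was added and 0% for both drugs. The lowest adjusted p among their 28 tests was 0.34. Before adjustment 4 of the 28 had a p under 0.05: Cacna1i for the lesion, Cacna1b for L-DOPA, and Cacna1b and Cacna2d3 for zonisamide. That is 14.3% of the genes for the lesion (8.47% of all features), 14.3% after L-DOPA (11.2%), 28.6% when zonisamide was added (12.3%) and 0% for both drugs (7.32%). Groups did not overlap for 1 of 7 genes in the lesion comparison, Cacna1i (17% of all features), and for 2 of 7 after L-DOPA, Cacna1g and Cacna2d1 (22.4%), both near the share of all features. They overlapped for all 7 genes when zonisamide was added and for both drugs, where 17.3% and 18.2% of all features had groups apart. A test for any difference among the 4 groups, which called 0.266% of all features and had 11.7% under an unadjusted 0.05, called none of the 7 either and had none under 0.05, with the smallest adjusted p, 0.442, for Cacna2d3. In the plot of changes by comparison, most intervals span 0.

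**Figure D1:**
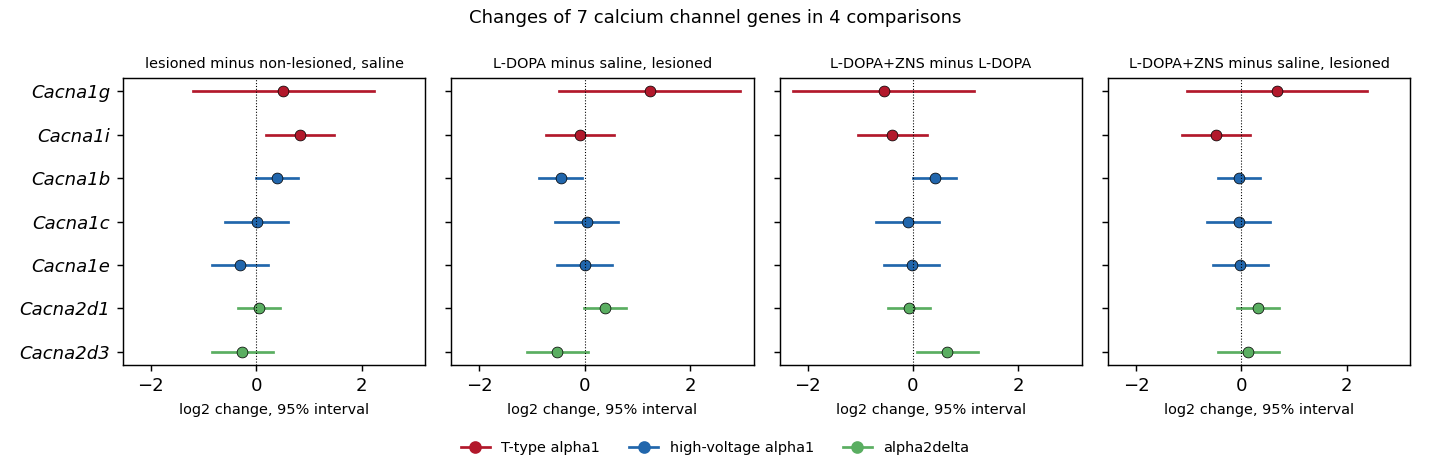
Log2 change (horizontal axis) of each of the 7 genes in the 4 comparisons, with limma's 95% interval as a line; colours mark T-type, high-voltage and alpha2delta genes. Cacna1g has the widest intervals, and the largest mean difference is its 1.24 for L-DOPA, whose interval runs from -0.48 to 2.95.

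Cacna1g encodes Cav3.1, the T-type channel of burst-firing thalamic relay neurons. Its levels were -3.27, -2.59 and -4.96 on the non-lesioned side and -3.11, -2.77 and -3.40 on the lesioned side after saline. After L-DOPA they were -1.84, -1.98 and -1.75, and with zonisamide added they were -0.48, -3.46 and -3.29. All 3 L-DOPA arrays lay above all 6 saline arrays and close together, whereas the zonisamide group was split, with replicate 1 above every other array and replicates 2 and 3 within the saline range.

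Cacna1g was 1.24 ± 0.77 (SE) higher after L-DOPA than after saline on the log2 scale, a 2.36-fold difference in mean (limma, adjusted p = 0.595), with a 95% interval from -0.48 to 2.95. The groups did not overlap, as was true of 22.4% of all features in this comparison. With zonisamide added to L-DOPA the mean was 0.55 ± 0.77 (SE) lower, with an interval from -2.27 to 1.16 (adjusted p = 0.839). The lesion difference was 0.51 ± 0.77 (SE, adjusted p = 0.871) and that of both drugs against saline 0.68 ± 0.77 (SE, adjusted p = 0.844). These standard errors carry the spread of the zonisamide group (SD 1.67) and of the non-lesioned group (SD 1.22), since all groups share 1 estimate of the spread, whereas the L-DOPA group had an SD of 0.12.

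The array with the highest Cacna1g level is also the one with the high thalamic and septal marker sum. Without it, the zonisamide difference was -1.52 ± 0.56 (SE, limma, adjusted p = 0.300), and that of both drugs against saline turned from 0.68 to -0.28 ± 0.56 (SE, adjusted p = 0.929). Without replicate 2 or replicate 3 of that group in its place, the zonisamide difference was -0.03 or -0.12, so single arrays set its size. The L-DOPA difference stayed at 1.24 without zonisamide replicate 1, with a smaller SE of 0.50 (adjusted p = 0.391). The lesion difference turned to -0.16 without non-lesioned replicate 3, the lowest array. With only the lesioned saline and L-DOPA groups in the fit, the adjusted p of the L-DOPA difference was 0.103, still over the threshold.

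A second Cacna1g probe, dimmer and printed as 2 spots, gave the same order of arrays at the top. It read -4.67, -4.52 and -5.19 on the non-lesioned side, -4.78, -4.63 and -5.04 after saline on the lesioned side, -3.41, -3.61 and -3.28 after L-DOPA, and -2.45, -5.39 and -4.82 with zonisamide added. Both probes thus placed the 3 L-DOPA arrays above all saline arrays and zonisamide replicate 1 above all others. On this probe the L-DOPA difference was 1.39 ± 0.60 (SE, adjusted p = 0.435 over all probes), the zonisamide difference -0.79 ± 0.60 (SE, adjusted p = 0.667) and the lesion difference -0.02 ± 0.60 (SE, adjusted p = 0.994). The brighter probe, which stands for the gene, is a single spot per array.

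**Figure D2:**
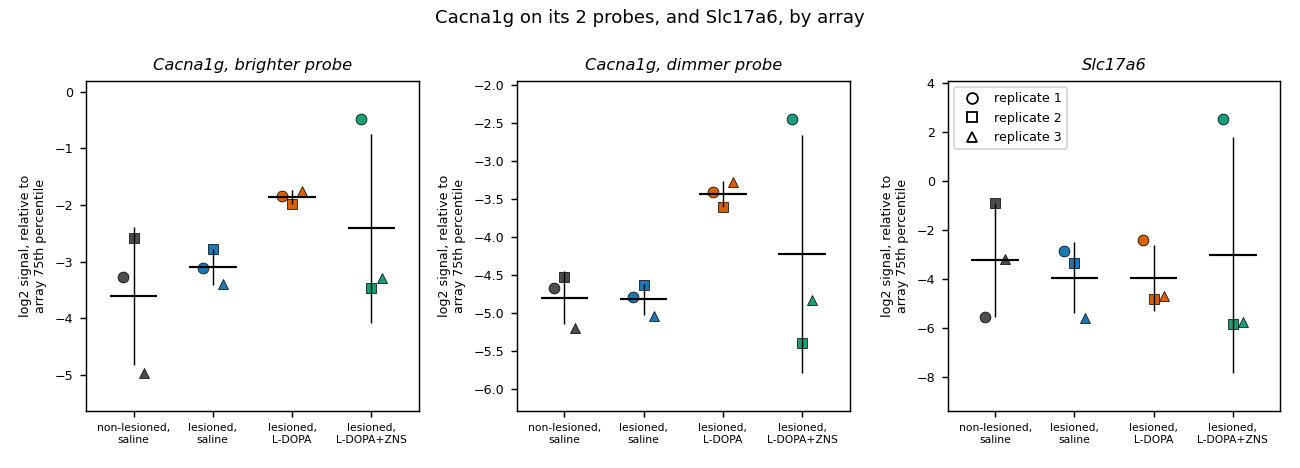
Log2 signal relative to the array's 75th percentile (vertical axis) in the 4 groups for both Cacna1g probes and for Slc17a6, with 1 point per array, mean as a bar and SD as a line (n = 3). Replicate 1 of L-DOPA with zonisamide is the highest array in all 3 panels, at -0.48 and -2.45 for Cacna1g and 2.52 for Slc17a6, while the 3 L-DOPA arrays lie above all saline arrays for Cacna1g.

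Within slides, which each held up to 4 arrays, Cacna1g was higher after L-DOPA than after saline by 1.27 on one slide and 0.79 on another. The zonisamide difference was 1.36 on the slide of replicate 1 and -1.48 and -1.54 on the other 2 slides. Choroid plexus markers also moved with the L-DOPA comparison, with 11 of 11 higher and a median difference of 2.87. They were 11 of 11 lower with zonisamide added (median -1.57), 11 of 11 higher with both drugs (1.33) and 11 of 11 lower for the lesion (-1.68). By replicate, the choroid plexus sums were 3.26, 3.45 and 7.31 on the non-lesioned side, with Cacna1g at -3.27, -2.59 and -4.96. In lesioned saline they were 1.99, 4.60 and 3.77, with Cacna1g at -3.11, -2.77 and -3.40. After L-DOPA they were 4.57, 7.55 and 7.04, with Cacna1g at -1.84, -1.98 and -1.75. With zonisamide added they were 4.56, 3.22 and 6.86, with Cacna1g at -0.48, -3.46 and -3.29. The share of choroid plexus and thalamic RNA in the Cacna1g differences was not tested. In bulk striatum, fewer cells of a type and less RNA per cell cannot be told apart.

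Cacna1i encodes Cav3.3, the slowest T-type channel, which sustains bursts in thalamic reticular neurons. Its levels were -0.80, -0.09 and -0.40 on the non-lesioned side and 0.01, 0.20 and 1.00 on the lesioned side after saline. They were 0.01, 0.46 and 0.47 after L-DOPA and 0.07, 0.12 and -0.43 with zonisamide added. Every lesioned saline array was above every non-lesioned one, and both lesioned groups without zonisamide had the same lowest value.

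The lesion difference of Cacna1i was 0.83 ± 0.29 (SE), 1.78-fold, with an interval from 0.18 to 1.48 (limma, adjusted p = 0.521). These 2 groups did not overlap, as was true of 17% of all features. L-DOPA left the mean at -0.09 ± 0.29 (SE, adjusted p = 0.950) relative to saline, and zonisamide added to L-DOPA gave -0.39 ± 0.29 (SE, adjusted p = 0.659). Both drugs against saline gave -0.48 ± 0.29 (SE, adjusted p = 0.715). The lesion difference was 0.80 on the 1 slide that held both saline groups, and over all alternatives tried it ranged from 0.49 to 1.03, always positive.

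The Cacna1i probe that stands for the gene is a single spot per array. The other Cacna1i probe, dimmer and with 2 spots, varied far more among arrays of a group. It read -3.68, -0.90 and -2.28 on the non-lesioned side, -1.88, -2.36 and 0.06 in lesioned saline, -1.98, -0.72 and -1.21 after L-DOPA, and -2.52, -1.50 and -2.56 with zonisamide. On non-lesioned replicate 1 (-3.68) a share of only 0.5 of its spots was above background. The saline groups overlapped on this probe. Its lesion difference was 0.89 ± 0.76 (SE, adjusted p = 0.757 over all probes), similar in size to that of the brighter probe, with an interval from -0.81 to 2.59.

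**Figure D3:**
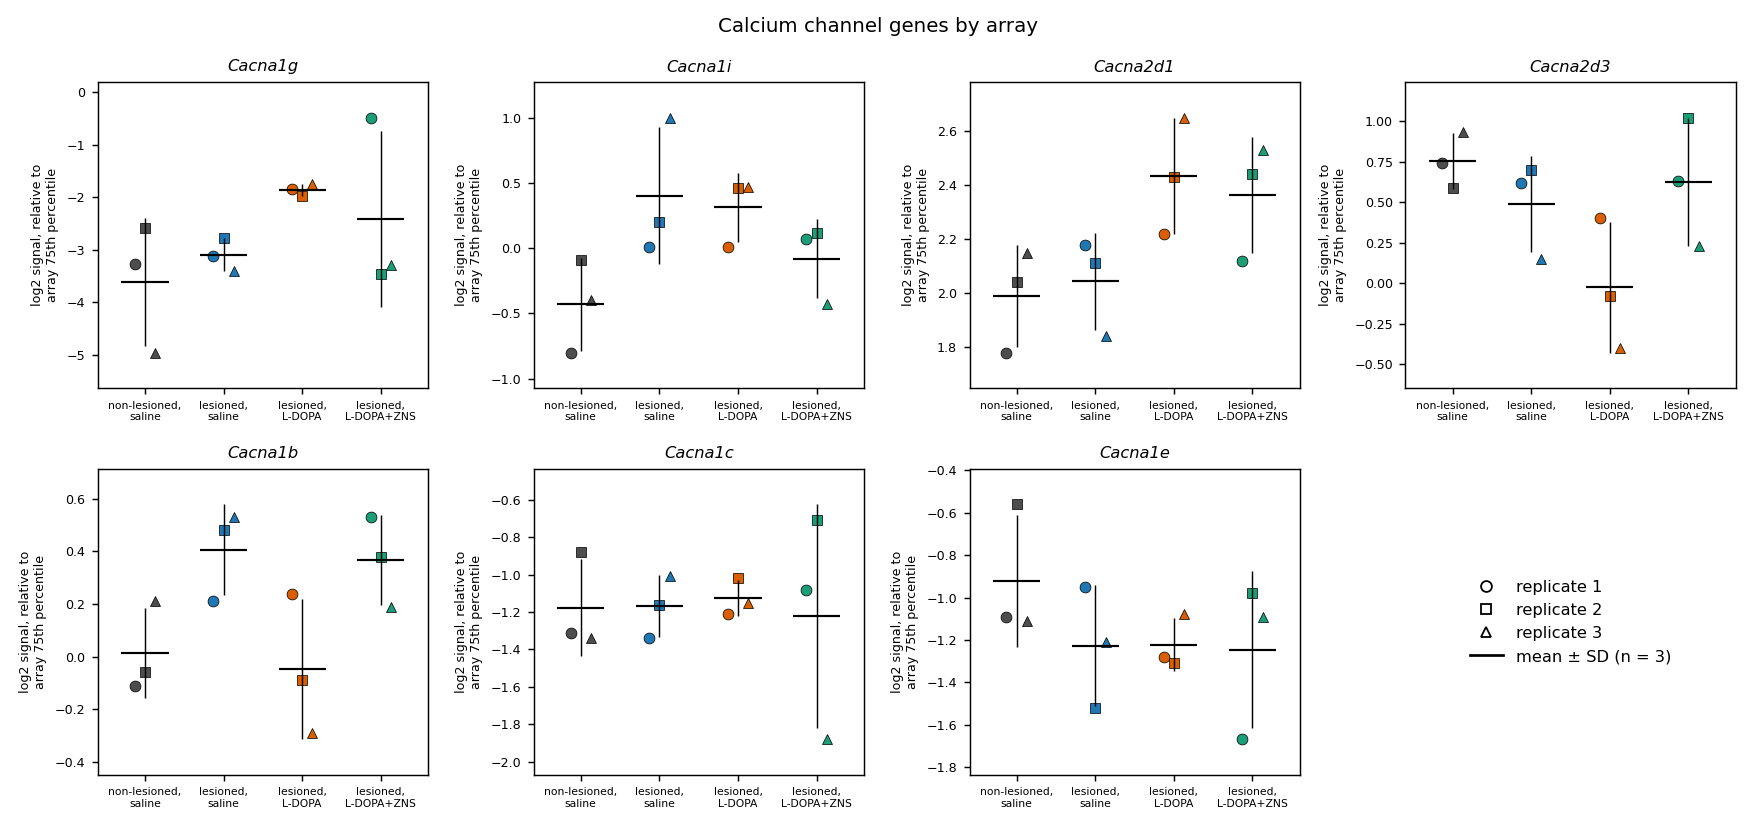
Log2 signal relative to the array's 75th percentile (vertical axis, a separate scale in each panel) for the 7 calcium channel genes in the 4 groups of 3 arrays, with the mean as a bar and SD as a line. Cacna1g lies between -1.98 and -1.75 after L-DOPA, Cacna1b and Cacna2d3 have their lowest means there, and Cacna1c means run from -1.22 to -1.12.

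Cacna1b encodes Cav2.2, the N-type channel that drives transmitter release. Its levels were -0.11, -0.06 and 0.21 on the non-lesioned side and 0.21, 0.48 and 0.53 on the lesioned side after saline. They were 0.24, -0.09 and -0.29 after L-DOPA and 0.53, 0.38 and 0.19 with zonisamide added. Lesioned saline and zonisamide arrays were mostly high and non-lesioned and L-DOPA arrays mostly low, with neighbouring groups meeting or overlapping at 1 array.

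Cacna1b was 0.39 ± 0.18 (SE) higher on the lesioned side (adjusted p = 0.589). It was 0.45 ± 0.18 (SE) lower after L-DOPA than after saline (adjusted p = 0.377), with an interval from -0.86 to -0.05. With zonisamide added it was 0.41 ± 0.18 (SE) higher than with L-DOPA alone (adjusted p = 0.392, interval from 0.01 to 0.81), which left -0.04 ± 0.18 (SE) between both drugs and saline. The L-DOPA and zonisamide comparisons share the L-DOPA arrays, so their opposite signs are not independent. Within slides the zonisamide difference was 0.29, 0.46 and 0.48, and the L-DOPA difference was 0.03 and -0.57. Summed levels of 8 interneuron markers were also lower after L-DOPA, at 4.29 to 4.40, than in lesioned saline (4.68 to 4.75) or with zonisamide added (4.58 to 4.94), with 6 of 8 lower for L-DOPA and 7 of 8 higher for zonisamide. Spiny neuron sums were lower after L-DOPA than in lesioned saline without overlap. Lower sums were not particular to neurons. Astrocyte sums also fell without overlap, to 6.68 to 6.96 from 7.07 to 7.42, with 4 of 7 markers lower. Endothelium sums rose without overlap, to 2.89 to 3.35 from 2.52 to 2.87, with 5 of 6 markers higher. The share of these cell types' RNA in the Cacna1b and Cacna2d3 differences was not tested. Both Cacna1b differences had the same sign in each of the 24 alternatives tried. Without zonisamide replicate 1 the zonisamide difference was 0.33 ± 0.20 (SE, adjusted p = 0.583).

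This Cacna1b probe is printed as 10 spots on each array, which gives the spread between spots of an array. Technical differences between arrays are not part of that spread, so it does not separate them from biological differences. The SD between spots within an array ranged from 0.04 to 1.14 with a median of 0.21. An array's level is a mean over its spots, and the median spot SD gives a mean of 10 spots an SE of 0.068. The SD of these array levels within a group was 0.20. The largest spot SDs were on non-lesioned replicates 1 and 2, at 1.14 and 0.849, so the median does not describe those arrays. A dimmer Cacna1b probe gave differences of the same sign, 0.36 for the lesion, -0.29 for L-DOPA and 0.20 for zonisamide, each ± 0.28 (SE).

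Cacna1c encodes Cav1.2, the main L-type channel of neurons, whose calcium signal reaches the nucleus. Its levels were -1.31, -0.88 and -1.34 on the non-lesioned side and -1.34, -1.16 and -1.01 in lesioned saline. They were -1.21, -1.02 and -1.15 after L-DOPA and -1.08, -0.71 and -1.88 with zonisamide added. All groups overlapped, and the lowest array, zonisamide replicate 3, was also the one whose 10 spots disagreed most, with an SD of 1.34.

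For Cacna1c the lesion difference was 0.01, that of L-DOPA 0.04, that of zonisamide -0.10 and that of both drugs -0.05, each ± 0.27 (SE, n = 3, adjusted p from 0.933 to 0.995). The 95% interval for L-DOPA ran from -0.56 to 0.64, which allows a difference in either direction. The dimmer probe lay between -6.96 and -4.88, again with its lowest value on zonisamide replicate 3. On that array a share of only 0.5 of its spots was above background.

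Cacna1e encodes Cav2.3, the R-type channel found in spines and at release sites. Its levels were -1.09, -0.56 and -1.11 on the non-lesioned side, -0.95, -1.52 and -1.21 in lesioned saline, -1.28, -1.31 and -1.08 after L-DOPA, and -1.67, -0.98 and -1.09 with zonisamide added. The means of the 3 lesioned groups were nearly equal, at -1.23, -1.23 and -1.24, and all 4 groups overlapped. The lesion difference was -0.31 ± 0.23 (SE, adjusted p = 0.719), and the L-DOPA, zonisamide and both-drug differences were 0.00, -0.02 and -0.02, each ± 0.23 (SE).

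Cacna2d1 encodes alpha2delta-1, the subunit that gabapentin and pregabalin bind. Its levels were 1.78, 2.04 and 2.15 on the non-lesioned side and 2.18, 2.11 and 1.84 in lesioned saline. They were 2.22, 2.43 and 2.65 after L-DOPA and 2.12, 2.44 and 2.53 with zonisamide added. The L-DOPA arrays all lay above the lesioned saline arrays, by 0.04 at the nearest.

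Cacna2d1 was 0.39 ± 0.18 (SE) higher after L-DOPA than after saline, 1.31-fold (adjusted p = 0.457), and 0.32 ± 0.18 (SE) higher with both drugs (adjusted p = 0.699). The zonisamide difference was -0.07 ± 0.18 (SE), with an interval from -0.47 to 0.33. Within slides the L-DOPA difference of Cacna2d1 was 0.04 on one and 0.32 on the other.

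Cacna2d3 encodes alpha2delta-3, a subunit linked to pain sensing and hearing. Its levels were 0.74, 0.59 and 0.93 on the non-lesioned side and 0.62, 0.70 and 0.15 in lesioned saline. They were 0.40, -0.08 and -0.40 after L-DOPA and 0.63, 1.02 and 0.23 with zonisamide added. The L-DOPA group held the only values under 0, and it overlapped the other lesioned groups at 1 array.

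Cacna2d3 was 0.65 ± 0.26 (SE) higher with zonisamide added than with L-DOPA alone, 1.57-fold, with an interval from 0.07 to 1.24. Its adjusted p of 0.340 was the lowest among the 28 tests of these genes. It was 0.52 ± 0.26 (SE) lower after L-DOPA than after saline (adjusted p = 0.5), and the groups with both drugs and with saline differed by 0.13 ± 0.26 (SE). Cacna2d3 was higher with zonisamide on all 3 slides, by 0.24, 1.10 and 0.63. Without zonisamide replicate 1 the difference was the same size, 0.65 ± 0.31 (SE, adjusted p = 0.437).

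By class, the T-type genes had median differences of 0.67 for the lesion, 0.58 after L-DOPA, -0.47 when zonisamide was added and 0.10 for both drugs. The high-voltage genes had 0.01, 0.00, -0.02 and -0.04, and the alpha2delta genes -0.11, -0.06, 0.29 and 0.22. These medians cover only genes of the list of 10. Cacna2d2, another tested alpha2delta gene, had -0.06, -0.81, 0.79 and -0.01, and was not called. For L-DOPA and zonisamide it had the signs of Cacna2d3, so the alpha2delta medians do not stand for all tested alpha2delta genes. Cacna1s, another tested high-voltage alpha1 gene, had -0.35, 0.21, -0.48 and -0.27. The median over all features was 0.05, -0.03, -0.03 and -0.05. With 2 T-type and 3 high-voltage genes these medians are descriptions and were not tested. The T-type L-DOPA median averages 1.24 for Cacna1g and -0.09 for Cacna1i, so it stands for neither gene. Both T-type genes had lower means with zonisamide added, by 0.55 and 0.39, with intervals that include 0.

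Other genes of calcium handling were read from 3 lists, and none of their tested members passed in any comparison. Of the other channel subunits 12 of 16 listed genes were tested, of the genes for calcium release and removal 20 of 23, and of calcium sensors, buffers and channel partners 30 of 31. The share with an unadjusted p under 0.05 was no more than 4 of 12, 3 of 20 and 5 of 30, in the order of the lists. The 4 of 12 channel subunits were for zonisamide, where 12.3% of all features had such a p. The 3 of 20 were reached for the lesion (8.47% of all features), L-DOPA (11.2%) and zonisamide (12.3%), and the 5 of 30 for L-DOPA (11.2%). Genes of calcium release and removal had a median difference of 0.26 with zonisamide added, with 13 of 20 higher. Over all features the median for zonisamide was -0.03, with 46.1% higher, and the other lists had medians of -0.02 and -0.01. The release and removal list had 13 of 20 lower for the lesion (median -0.15) and for L-DOPA (-0.10). For both drugs 16 of 20 were higher (0.14). The L-DOPA and zonisamide comparisons share the L-DOPA arrays, and these medians were not tested.

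Among the channel subunits, Cacng6, a gamma subunit best known from muscle, read -5.75, -6.11 and -5.21 after L-DOPA and -7.36, -7.29 and -7.01 after saline. It was above background on all 3 L-DOPA arrays and on none of the saline arrays, so it entered the tests only through the group where it is high, and its saline values are bounds. No difference or test is therefore read for it. Cacng3, a gamma protein that escorts AMPA receptors, was 1.05 ± 0.35 (SE) higher with zonisamide added (adjusted p = 0.249), at -0.27, 0.31 and 0.13 against -0.38, -1.09 and -1.50.

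Cacng1, the gamma subunit of the skeletal muscle channel, was 0.92 ± 0.27 (SE) higher with zonisamide added (adjusted p = 0.190), 0.51 ± 0.27 (SE) higher with both drugs than with saline (adjusted p = 0.690) and 0.66 ± 0.27 (SE) lower on the lesioned side (adjusted p = 0.579). Cacng7, another gamma protein that acts on AMPA receptors, was 0.75 ± 0.21 (SE) lower with both drugs than with saline (adjusted p = 0.627) and 0.50 ± 0.21 (SE) lower after L-DOPA (adjusted p = 0.420). Cacnb4, a beta subunit that binds the pore inside the cell, was 0.55 ± 0.29 (SE) higher on the lesioned side (adjusted p = 0.639). None of these passed.

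Among release and removal genes, Atp2b4, a plasma membrane calcium pump, read -5.33, -5.48 and -5.53 in lesioned saline against -5.98, -7.18 and -6.78 on the non-lesioned side and -5.84, -5.99 and -6.86 after L-DOPA. It was above background on all 3 arrays in the lesioned saline group only and so entered the tests through the group where it is high. No difference is read for it, and the signs turned without the filter on dim probes. Atp2a2, the pump that refills the endoplasmic reticulum, was 0.43 ± 0.15 (SE) lower on the lesioned side (adjusted p = 0.524), and 0.07 higher there with the mean of its probes. Orai1, the pore of store-operated entry, read -3.21, -2.63 and -2.50 after L-DOPA against -3.48, -3.31 and -3.89 after saline, a difference of 0.78 ± 0.25 (SE, adjusted p = 0.266). It was 0.68 ± 0.25 (SE) lower with zonisamide added (adjusted p = 0.297). Slc24a3, a sodium, calcium and potassium exchanger, was 0.91 ± 0.30 (SE) higher with zonisamide added than with L-DOPA alone (adjusted p = 0.242) and 0.89 ± 0.30 (SE) higher than with saline (adjusted p = 0.658). With zonisamide added it read 1.87, 1.08 and 0.98, highest on replicate 1, the array with the high thalamic and septal marker sum. Atp2a3, another reticulum pump, was 0.52 ± 0.24 (SE) higher with both drugs than with saline (adjusted p = 0.673). Its arrays with both drugs read -3.33, -4.24 and -3.83, and without replicate 1 of them the difference was 0.29.

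Among sensors and partners, Camk2d, a calmodulin-dependent kinase, was 1.42 ± 0.37 (SE) higher after L-DOPA (adjusted p = 0.157), at -2.31, -1.68 and -1.40 against -2.81, -3.35 and -3.51, and 0.80 ± 0.37 (SE) higher with both drugs (adjusted p = 0.673). With both drugs it read -1.78, -3.16 and -2.32, again highest on replicate 1. Rrad, a small GTPase that inhibits high-voltage channels, was 0.58 ± 0.22 (SE) higher after L-DOPA (adjusted p = 0.348), and Rem2, of the same family, 0.57 ± 0.21 (SE) higher on the lesioned side (adjusted p = 0.538). Kcnn1, a potassium channel opened by calcium, was 0.55 ± 0.16 (SE) lower with zonisamide added (adjusted p = 0.183). Akap9, a scaffold for protein kinase A, was 0.41 ± 0.15 (SE) higher in that comparison (adjusted p = 0.308). Camk4, a nuclear kinase of the CREB pathway, was 0.85 ± 0.41 (SE) higher on the lesioned side (adjusted p = 0.608).

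**Figure D4:**
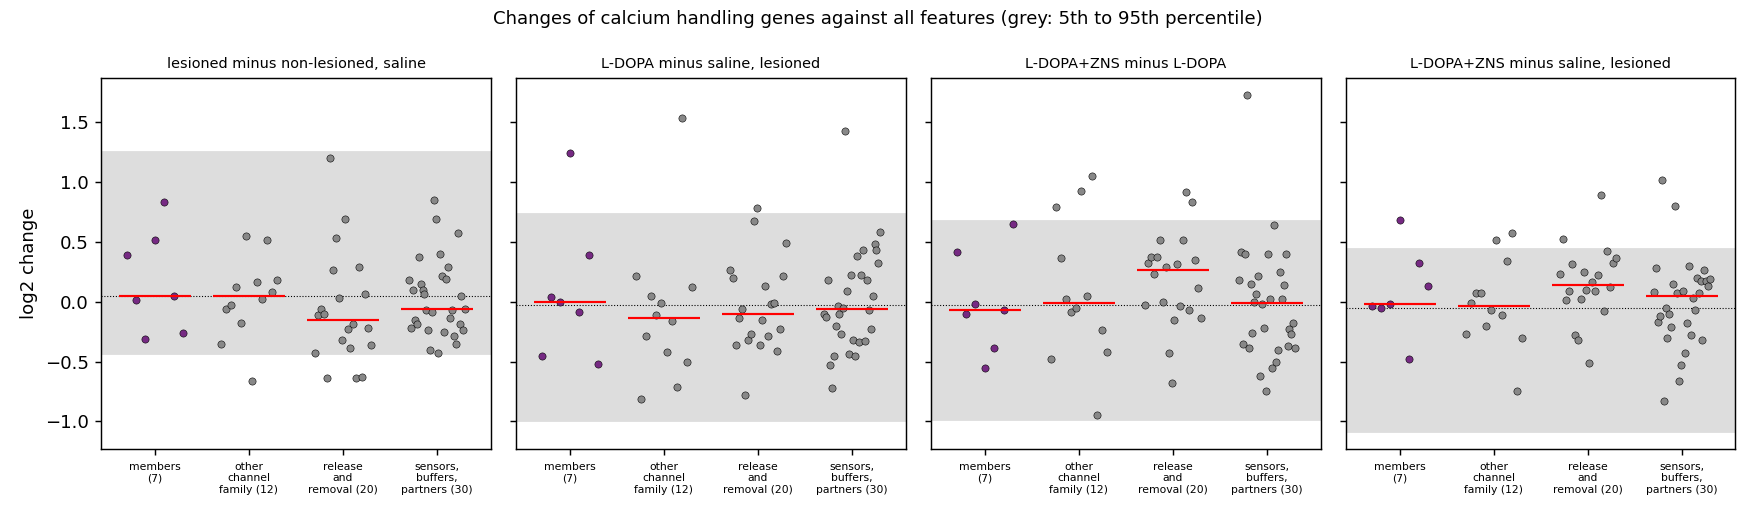
Log2 change (vertical axis) of the 7 calcium channel genes (purple) and of the tested genes of 3 calcium lists (grey) in the 4 comparisons; red bars are medians, the dotted line the median of all features and the grey band its 5th to 95th percentiles. Most genes lie within the band, and by its definition some of all features lie outside it. For L-DOPA, Cacna1g (1.24), Camk2d (1.42) and Orai1 (0.78) lie above its upper end of 0.73. The Cacng6 point (1.53) is plotted but not read, since its saline values were not above background. Genes lie outside the band in the other comparisons too.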

How the data were processed

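Cy3-labelled cRNA of 12 striatum samples was hybridised to Agilent arrays. Per the file headers, the authors' deposited processed signal is an intensity from Agilent Feature Extraction that was background-subtracted and detrended within each array, without scaling across arrays. The authors also deposited a combined file of the same intensities. Control and outlier spots were left out, spots of a probe averaged, and log2 signals scaled to each array's 75th percentile over spots. Probes with a share of 0.5 or more of their spots marked above background in every array of some group were tested. The brightest probe stood for a gene. RefSeq accessions named 17328 probes and left 13039 unnamed, giving 19530 features.

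All 12 arrays and 4 groups were fitted together in R 4.3.3 by limma (version 3.58.1; tables were handled by the data.table package, version 1.17.8), with two-sided moderated tests, 8 residual degrees of freedom and Benjamini-Hochberg adjustment over all features. With 3 arrays per group, their number limits the precision. Named were all listed channel genes and, from each calcium list, genes that passed or otherwise the 2 with the smallest p in each comparison. Some results that this rule names are not reported here. The members and lists were chosen with earlier results of these data known. Normexp used median spot intensities, since mean spot intensities, which had been planned, were not used here.

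Same-numbered arrays of the zonisamide comparison shared a slide, and their deviations from the group means correlated at 0.376, 0.203 and 0.250. A shared slide and a pairing by number cannot be told apart there. In the other comparisons, same-numbered arrays on a shared slide correlated at -0.185 to 0.207. The main fit did not pair arrays. Arrays lay on 5 slides. Alternatives were other normalizations (quantile, normexp with offset 50), filters, probe summaries, variance models, array weights, only the groups compared, the replicate number or slide as a block, and leaving out each array.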

Additional observations from a re-analysis of the deposited data

How the results depend on the processing

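None of the 7 channel genes was called in any comparison or in the test of any difference under any of the alternatives (119 counts, all 0). Over all features the calls moved more, from 0 to 381 for L-DOPA, 0 to 241 for zonisamide, 0 to 13 for the lesion, 0 to 3 for both drugs and 0 to 303 for any difference. Of 672 recomputed changes of the 7 genes, 613 kept their sign and 59 turned; the cause was not tested. Those of Cacna1g and Cacna2d1 for L-DOPA, Cacna1i for the lesion, and Cacna1b and Cacna2d3 for L-DOPA and zonisamide kept theirs in all 24 alternatives. In the main fit, the changes of the 7 genes that turned lay between -0.10 and 0.13, apart from those of Cacna1g. These were 0.51 for the lesion and 0.68 for both drugs, and turned only when an array was left out. Log2 changes that turned follow. With array weights the sign turned for Cacna1b both drugs 0.00, Cacna1c both drugs 0.11, Cacna1c lesion -0.06, Cacna1c zonisamide 0.03, Cacna1e L-DOPA 0.05, Cacna1e both drugs 0.01 and Cacna1i L-DOPA 0.06. With the mean of a gene's probes the sign turned for Atp2a2 lesion 0.07, Cacna1c L-DOPA -0.09, Cacna1c lesion -0.06 and Cacna1i L-DOPA 0.00. With no filter on dim probes the sign turned for Atp2b4 L-DOPA 0.50 and Atp2b4 lesion -0.21. With normexp with quantile normalization the sign turned for Cacna1b both drugs 0.03, Cacna1c both drugs 0.11, Cacna1c lesion -0.18, Cacna1c zonisamide 0.01, Cacna1e L-DOPA 0.04, Cacna1e both drugs 0.05, Cacna1e zonisamide 0.02, Cacna1i L-DOPA 0.01 and Cacna2d1 zonisamide 0.08. With quantile normalization alone the sign turned for Cacna1b both drugs 0.01, Cacna1c both drugs 0.03, Cacna1c lesion -0.08, Cacna1e L-DOPA 0.02, Cacna1e both drugs 0.06, Cacna1e zonisamide 0.04 and Cacna2d1 lesion 0.00. With slide as a fixed block the sign turned for Cacna1b both drugs 0.09, Cacna1c both drugs 0.13, Cacna1c lesion -0.39 and Cacna1i L-DOPA 0.19. With slide as a random block the sign turned for Cacna1c lesion -0.04. Leaving out 1 array in turn gave ranges that include a turn for Cacna1b both drugs -0.14 to 0.05, Cacna1c L-DOPA -0.04 to 0.12, Cacna1c both drugs -0.31 to 0.28, Cacna1c lesion -0.07 to 0.16, Cacna1c zonisamide -0.36 to 0.23, Cacna1e L-DOPA -0.15 to 0.14, Cacna1e both drugs -0.16 to 0.19, Cacna1e zonisamide -0.15 to 0.19, Cacna1g both drugs -0.28 to 1.21, Cacna1g lesion -0.16 to 1.02, Cacna1i L-DOPA -0.29 to 0.21, Cacna2d1 lesion -0.06 to 0.15, Cacna2d1 zonisamide -0.18 to 0.05 and Cacna2d3 both drugs -0.06 to 0.33. The high-voltage median ranged from -0.15 to 0.23 for zonisamide and -0.07 to 0.16 for the lesion without 1 array, and was -0.27 for the lesion with slide as a fixed block. With the replicate number as a block, Cacna1g for L-DOPA had an adjusted p of 0.551 and Cacna2d3 for zonisamide one of 0.343, and no call of these genes changed. Of 549 recomputed changes of the other calcium genes, 545 kept their sign and side of the threshold. Signal limits the dim probes most, since Cacng6 and Atp2b4 were not above background on 7 and 3 arrays.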
